A study of Mus musculus with 4 samples.

Results

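The IL-4-only intergenic regions were 719 stretches of open chromatin away from annotated start sites and outside protein-coding genes. They had a peak with IL-4 in each of the replicates and no peak without it. They were selected on measured calls. Peaks of the 4 libraries that shared at least 1 base were merged into 93503 regions on the assembled chromosomes. A region was kept when both IL-4 libraries and no PBS library had a peak in it, its centre lay more than 5 kb from every annotated transcript start site, and its centre lay outside every protein-coding gene. Of the merged regions, 2435 had this pattern of calls (2.6%). Of the 26323 intergenic regions, 719 had it (2.73%), and 244 had the opposite pattern, with peaks in both PBS libraries alone (0.927%). Because the calls chose the members, their presence with IL-4 and absence without it is a description and not a result.

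Accessible chromatin was measured by ATAC-seq, in which a transposase inserts sequencing adapters into DNA that is not wrapped in nucleosomes. Every library came from wild-type male C57BL/6 mice, whose spleens supplied naive CD4+ T cells sorted as CD62LhighCD44lowCD25-. Their age was taken as 7 weeks for every sample, and the methods of the study give a range of ages around this value. All cells received plate-bound anti-CD3 at 5 µg/ml, soluble anti-CD28 at 1 µg/ml, TGF-β1 at 5 ng/ml and IL-2 at 10 ng/ml for 48 h, a mixture that drives induced regulatory T cells (iTreg). The iTreg+IL-4 cultures also received IL-4 at 15 ng/ml and the iTreg+PBS cultures did not, with 2 libraries for each condition. The study described the samples as biologically independent and pooled, so each library is a mixture of cells and not a single animal, and the bulk signal cannot separate a site that is open in few cells from one that is weakly open in many.

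Distal open chromatin of this kind is where most enhancers lie. Enhancers are stretches of DNA bound by transcription factors that raise transcription of a gene at a distance, and in T helper cells they are more specific to a cell state than promoters are. IL-4 acts through its receptor on the factor STAT6, which enters the nucleus as a dimer and binds paired TTC and GAA half-sites with a longer spacer than most other STAT proteins prefer. In naive T cells STAT6 induces Gata3, the master regulator of type 2 helper cells, whose protein binds GATA sequences. TGF-β drives Foxp3, the regulator of regulatory T cells, and IL-4 opposes that program. The comparison therefore asks where, away from start sites and outside protein-coding genes, chromatin was called open when both signals were given together.

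The lists differed in length. The PBS libraries held 77064 and 56645 peaks and the IL-4 libraries 78670 and 67743. The lists hold no reads, so depth is unknown and the absence of a peak means only that none passed the caller's threshold. In the intergenic space 2296 regions were called in both replicate 1 libraries and in neither replicate 2 library, against 160 for the reverse. The start sites of all 8 CD4+ T cell markers had a peak in every library, whereas Cd79a of B cells, Lyz2 and Csf1r of myeloid cells and Ncr1 of NK cells had none in any library. Other markers of those cells did have peaks, with 2 or 3 of 5 myeloid markers in a library. Of the B cell markers Pax5 had a peak in all 4 libraries, Ms4a1 in 3 and Cd79b in iTreg+IL-4 replicate 2 alone. NK cells had 0 to 2 of 3, CD8+ T cells 1 or 2 of 2, erythroid cells 1 or 2 of 3 without Hbb-bs, and epithelial cells 2 of 3 without Krt8. Their part in the calls was not tested.

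Of the 206 members with either motif, 10 are shown first as examples, so that matches can be read in place. Each line gives 200 bases around the centre of a member, on the plus strand of mm10, read from the GRCm38 reference. Capitals mark every match to a STAT6-type motif (TTCNNNNGAA, which is its own reverse complement) or to a GATA motif (AGATAA, or TTATCT for the other strand). Lrrc1 and Ubl3 are the nearest coding genes of the 2 members with the best rank, and Vmn2r96, Il7r and Prss12 mark the 3 best members with both motifs. The other lines are members within 100 kb of a gene of the lists described further on, picked as examples after their values were seen.
Lrrc1, chr9:77561777-77561976: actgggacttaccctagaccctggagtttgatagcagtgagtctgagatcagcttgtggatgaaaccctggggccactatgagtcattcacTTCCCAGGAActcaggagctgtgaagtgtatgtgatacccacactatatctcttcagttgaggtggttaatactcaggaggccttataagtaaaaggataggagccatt
Ubl3, chr5:148620960-148621159: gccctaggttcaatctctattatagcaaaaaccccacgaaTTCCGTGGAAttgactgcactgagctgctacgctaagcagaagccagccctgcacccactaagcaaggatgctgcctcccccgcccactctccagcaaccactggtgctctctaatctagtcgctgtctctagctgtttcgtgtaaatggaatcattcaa
Vmn2r96, chr17:18623750-18623949: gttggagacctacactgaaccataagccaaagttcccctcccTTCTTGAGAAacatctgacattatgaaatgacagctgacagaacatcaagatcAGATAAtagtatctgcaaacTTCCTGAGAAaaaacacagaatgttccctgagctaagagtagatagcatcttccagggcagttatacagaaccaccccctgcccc
Il7r, chr15:9567456-9567655: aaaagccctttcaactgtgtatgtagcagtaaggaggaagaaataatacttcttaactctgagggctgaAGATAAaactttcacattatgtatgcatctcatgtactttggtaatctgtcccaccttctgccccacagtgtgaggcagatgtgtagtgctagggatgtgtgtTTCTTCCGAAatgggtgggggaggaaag
Prss12, chr3:123430774-123430973: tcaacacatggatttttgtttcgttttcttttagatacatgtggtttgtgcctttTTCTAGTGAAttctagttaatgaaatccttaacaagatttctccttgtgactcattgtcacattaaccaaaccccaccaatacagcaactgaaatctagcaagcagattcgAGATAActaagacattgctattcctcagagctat
Gata3, chr2:9854127-9854326: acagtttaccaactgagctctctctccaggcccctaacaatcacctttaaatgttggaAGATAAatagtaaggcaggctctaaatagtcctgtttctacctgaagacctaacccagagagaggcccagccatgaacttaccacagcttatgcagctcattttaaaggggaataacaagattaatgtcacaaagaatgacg
Tnfrsf18, chr4:156083219-156083418: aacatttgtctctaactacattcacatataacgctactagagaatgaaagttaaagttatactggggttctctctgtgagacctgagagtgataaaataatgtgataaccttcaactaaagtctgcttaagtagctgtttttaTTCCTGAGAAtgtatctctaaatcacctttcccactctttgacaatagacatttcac
Ahr, chr12:35573891-35574090: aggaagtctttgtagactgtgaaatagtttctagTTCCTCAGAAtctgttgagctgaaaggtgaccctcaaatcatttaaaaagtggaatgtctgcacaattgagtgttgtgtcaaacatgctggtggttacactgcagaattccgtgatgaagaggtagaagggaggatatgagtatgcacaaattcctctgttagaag
Havcr2, chr11:46486264-46486463: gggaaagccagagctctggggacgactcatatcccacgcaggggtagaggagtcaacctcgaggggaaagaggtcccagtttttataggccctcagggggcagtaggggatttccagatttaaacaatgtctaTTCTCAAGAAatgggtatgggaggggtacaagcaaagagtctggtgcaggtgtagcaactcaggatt
Runx1, chr16:92871379-92871578: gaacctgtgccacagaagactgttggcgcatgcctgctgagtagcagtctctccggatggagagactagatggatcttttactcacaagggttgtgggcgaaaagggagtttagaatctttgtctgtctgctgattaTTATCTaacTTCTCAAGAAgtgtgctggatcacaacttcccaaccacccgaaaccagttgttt
The Lrrc1 member held TTCCCAGGAA at its very centre, 4 bases to the left. The Vmn2r96 member held STAT6-type matches on either side of a GATA match. In the Runx1 member a GATA match and the match TTCTCAAGAA lay next to each other. The Havcr2 member held the same 10 letters alone, in a window that repeats covered to 100%.

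The members were weak peaks, as were the other IL-4-only regions. Strength was read as the −log10 of the q-value given with each peak, which grows as the peak stands further above its background. In iTreg+IL-4 replicate 1 it ranged from 1.51 to 62.1 with a median of 7.29, and in replicate 2 from 1.5 to 40.9 with a median of 6.29. The median over all peaks was 23.0 and 22.1 in the same libraries, and that of the IL-4-only regions was 6.97 and 6.46 near start sites and 6.97 and 6.41 inside genes. The rule itself, which admits no PBS peak, also bears on strength. The height of the pileup signal ranged from 12 to 173 with a median of 23 in replicate 1 and from 10 to 95 with a median of 18 in replicate 2. A median member was exceeded by 79.7% of the peaks in the first list and by 83.0% in the second. Of the 719 members 10 were in the upper 50% of both lists, 42 were in the upper 50% of at least one, and 278 were in the lowest 20% of both. The order of the members was partly shared between the libraries, with a Pearson r of 0.583 and a Spearman rho of 0.527 over the 719 members for their places in the lists, given as a description because all members of a library share its depth.

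**Figure D1:**
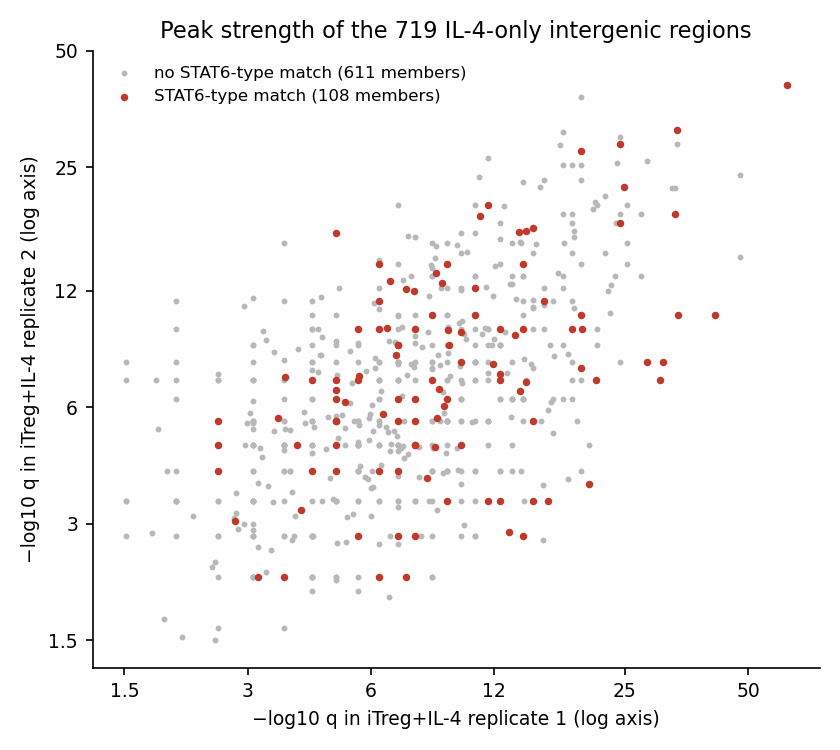
Each point is one of the 719 members, placed by the −log10 q of its peak in iTreg+IL-4 replicate 1 (horizontal) and replicate 2 (vertical), both on log axes. The 108 members with a STAT6-type match within the central 200 bases (red) are spread over the whole range, and most members of either kind lie under 12 in both libraries.

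Strength limited how firmly these calls can be read. With the upper 50% of each list alone, 282 intergenic regions had the pattern, of which 10 overlapped a member and 272 were other regions. The number of members in the upper 50% of both lists, given above, was also 10. A cut of the lists takes weaker PBS peaks away as well, so more regions can meet the condition of no PBS peak. With lists cut to the same length 407 had it, of which 177 overlapped a member and 230 were other regions. Leaving out a library removes a condition of the rule, so a higher number follows by construction and does not bear on strength. The number was 3553 without iTreg+PBS replicate 1 and 930 without iTreg+PBS replicate 2. It was 1862 without iTreg+IL-4 replicate 1 and 3114 without iTreg+IL-4 replicate 2.

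As far as width and place go, the members were short regions, like the other IL-4-only calls. Their median width was 320 bases (170 to 1419), against 314 bases for IL-4-only regions near start sites, 321.5 inside genes and 619 for the 11639 intergenic regions called in all 4 libraries, and 717 of them consisted of a single peak in each IL-4 library. The median distance from the centre to the nearest start site of any kind was 17372 bases, and to the nearest protein-coding start site 35915 bases. At the edge of the rule the closest members lay 5016, 5058 and 5104 bases from a start site, and the closest IL-4-only regions left out for distance lay at 4961, 4953 and 4922 bases. Between 5 and 10 kb from a start site lay 186 members, between 10 and 20 kb 214, between 20 and 50 kb 215, between 50 and 100 kb 89 and beyond 100 kb 15. The nearest member was upstream of Ids, a lysosomal sulfatase, with a −log10 q of 2.81 and 3.19 in the IL-4 libraries. The farthest was upstream of Cblb, a ubiquitin ligase that restrains T cell activation, 282358 bases from any start site, with a −log10 q of 14.8 and 7.74. Relative to the nearest coding start site 422 members were upstream and 297 downstream.

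Some members lay in noncoding genes, which the rule did not bar. The bodies of annotated noncoding genes held the centres of 97 members (13.5%), against 10.5% of intergenic regions called in all 4 libraries and 10.7% of those called only without IL-4, and the commonest kind was the long intergenic noncoding RNA. Repeats covered at least 50% of the central 200 bases in 126 members (17.5%, 95% Wilson interval 14.9 to 20.5). The share was 15.4% (14.8 to 16.1) in intergenic regions called in all 4 libraries and 46.7% (40.6 to 53.0) in the 244 called only without IL-4. In repeat content the members were closer to the regions called in every library than to the PBS-only regions. Wilson intervals throughout cover counting error over regions, which are not replicates of a condition. Median GC content was 46.5%.

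The members were scattered over the genome. They were found on all 19 autosomes and the X chromosome, with 60 on chromosome 1 as the highest number and 17 on chromosome 19 as the lowest of an autosome. As a share of the intergenic regions of a chromosome they ranged over the autosomes from 1.99% on chromosome 7 to 3.88% (2.85 to 5.27) on chromosome 16. None of the 67 intergenic regions of the Y chromosome was a member. With 50 kb as the largest gap within a run, 641 members stood alone and 78 formed 39 pairs, and no run of 3 occurred.

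Intergenic location was not a particular mark of the IL-4-only calls. Of the 2435 regions with the pattern 29.5% (27.7 to 31.4) were intergenic, 35.5% lay within 5 kb of a start site and 35.0% inside genes. The intergenic share was 24.4% (24.0 to 24.8) for regions called in all 4 libraries, 37.4% (33.7 to 41.1) for the 653 called only without IL-4 and 28.2% over all merged regions.

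STAT6-type and GATA sequences were more frequent in the members than in intergenic regions called in every library. The rule used calls and positions only, so sequence is a measure it did not use. Within 200 bases around the centre 108 of 719 members held TTCNNNNGAA (15.0%, 12.6 to 17.8). The share was 6.18% (5.75 to 6.63) in intergenic regions called in all 4 libraries, 3.69% (1.95 to 6.86) in those called only without IL-4 and 6.5% over all intergenic regions. The ratio of members to regions called in all 4 libraries was 2.43. AGATAA was found in 115 members (16%, 13.5 to 18.9), against 9.14% (8.63 to 9.68) of intergenic regions called in all 4 libraries, a ratio of 1.75, and 6.56% (4.08 to 10.4) of those called only without IL-4. Either motif occurred in 206 members (28.7%), against 14.7% of regions called in all 4 libraries and 9.43% of PBS-only regions, and 17 members (2.36%) held both, against 0.593%. Some members were copies of each other. The windows of 61 members (8.48%) shared a run of at least 30 bases with that of another member. The share was 14.9% in regions called in all 4 libraries. Among the 61 were a set of 20, which held a member with both motifs near Spsb1, and a set of 4 with both motifs near Vmn2r96, Vmn2r97 and Diaph2. With each set of copies counted once, the STAT6-type share was 14.6%, the GATA share 16.2% and both motifs occurred in 14 of 672, against 6.59%, 9.69% and 0.637% of regions called in all 4 libraries counted in the same way.

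Of the other 10 motifs searched on both strands, none was as much more frequent in the members than in regions called in all 4 libraries. RUNX (TGTGGT) was found in 21.6% of members and 23.6% of regions called in all 4 libraries, AP-1 (TGANTCA) in 12.8% and 13.9%, and NFAT (GGAAAA) in 13.9% and 16.8%. For the STAT5-type spacing, TTCNNNGAA, which has 1 base fewer between the half-sites, the values were 7.23% (5.56 to 9.36) and 10.1% (9.54 to 10.6), so the 2 spacings had opposite directions. TCF/LEF (TTCAAAG) stood at 6.95% and 5.80%, the IRF pair (GAAA repeated after a short spacer) at 5.56% and 6.13%, and the CTCF core at 8.21% and 8.76%. KLF/SP (GGGCGG), ETS (CGGAAG) and NF-kappaB were found in 4.59%, 5.01% and 0.974% of members, against 7.81%, 6.49% and 1.35%. Against the 244 PBS-only regions the order was different. The ratio there was 4.07 for the STAT6-type motif, 2.83 for TCF/LEF (2.46% of PBS-only regions, 1.13 to 5.26), 2.44 for GATA, 1.64 for AP-1 and 1.51 for IRF, so TCF/LEF stood above GATA in that comparison. STAT and NFAT letters can overlap, since TTCC begins some matches of one and ends some of the other on the opposite strand. A match is a description of letters and not evidence that a protein was bound.

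**Figure D2:**
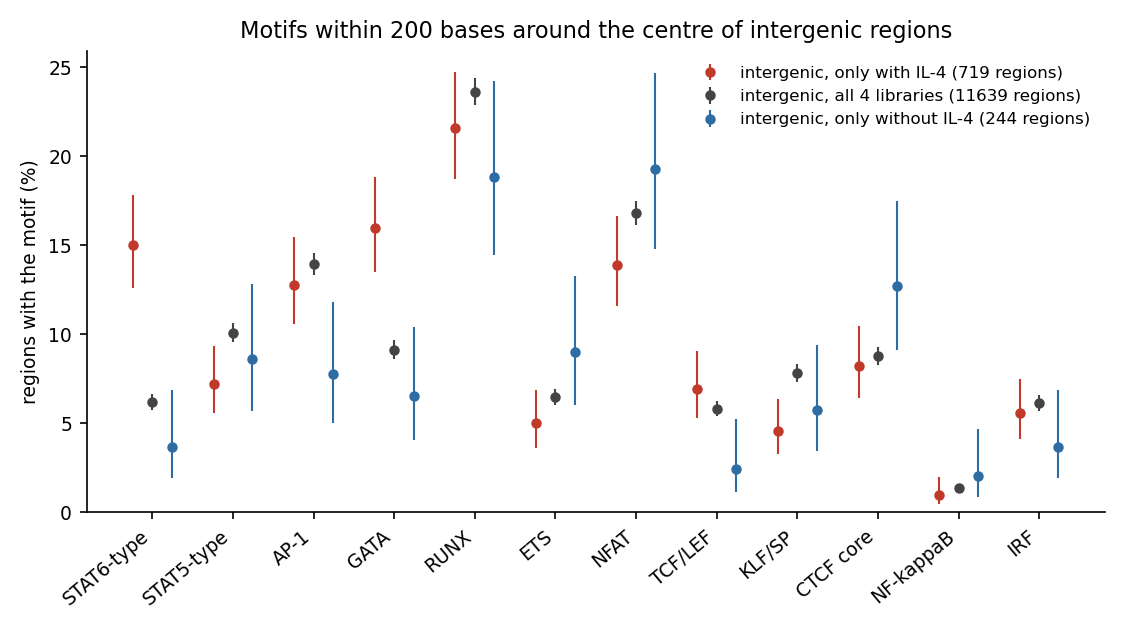
Share of intergenic regions with each of 12 motifs in the central 200 bases (percent, vertical axis), for regions called only with IL-4 (red), in all 4 libraries (black) and only without IL-4 (blue), with 95% Wilson intervals. The red intervals lie clear of the black ones for the STAT6-type motif (15.0% against 6.18%) and the GATA motif (16% against 9.14%), on the higher side, and for the STAT5-type and KLF/SP motifs on the lower side.

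The IL-4-only regions nearer to genes also held both motifs. The STAT6-type share was 13.2% (11.1 to 15.6) in the 864 near start sites and 11.5% (9.53 to 13.8) in the 852 inside genes, with intervals that overlap that of the intergenic members. The GATA share was 11.3% (9.40 to 13.6) and 13.7% (11.6 to 16.2), against 16% (13.5 to 18.9) in the members. The interval near start sites only just reached that of the members, and the one inside genes overlapped it more. Overlap of intervals does not show that shares are alike, and the differences were not tested. Other contents differed in part. KLF/SP stood at 10.3% (8.45 to 12.5) near start sites and 3.52% (2.48 to 4.98) inside genes, against 4.59% (3.29 to 6.38) in the members. Repeats covered at least 50% of the window in 10.1% near start sites and 10.6% inside genes, against 17.5% of the members.

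The motif shares depended on which libraries had a peak. Among the 15 combinations of libraries the members had the highest STAT6-type share. Next came 9.15% in regions called in iTreg+IL-4 replicate 1 alone, 9.05% in regions called in all but iTreg+PBS replicate 1 and 8.46% in regions called in iTreg+PBS replicate 1 with iTreg+IL-4 replicate 2. The lowest values were 2.64% in regions called in all but iTreg+IL-4 replicate 2 and 2.69% in those called in iTreg+PBS replicate 2 with iTreg+IL-4 replicate 1. For GATA the members again stood first, followed by 11.4% in regions called in all but iTreg+PBS replicate 1, with an interval (7.80 to 16.4) that overlaps that of the members.

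Regions called in 1 library alone give values per library that the rule did not use. Their STAT6-type share was 5.13% and 4.38% for PBS replicates 1 and 2 and 9.15% and 6.13% for IL-4 replicates 1 and 2. Both IL-4 values were above both PBS values, and the difference of the means was 2.88 percentage points (4.76 ± 0.529 with PBS and 7.64 ± 2.13 with IL-4, SD, n = 2), with p = 0.333 in a two-sided exact permutation test and 1 after Benjamini-Hochberg adjustment over the 12 motifs. With 2 libraries against 2 no smaller p than 0.333 can occur, so the design cannot pass a threshold. The NF-kappaB motif had the same separation at much lower shares, 0.786% and 0.129% with PBS and 0.839% and 0.812% with IL-4 (p = 0.333, exact permutation test, adjusted p = 1). The GATA shares were 6.79% and 9.54% with PBS and 9.15% and 10.3% with IL-4, and these groups overlapped (p = 0.667, exact permutation test, adjusted p = 1). AP-1 moved with the replicate number, at 25.4% in regions called in both replicate 1 libraries alone and 5.0% in those called in both replicate 2 libraries alone, whereas the STAT6-type shares there were 5.27% and 3.75%. What set the replicate numbers apart was not tested.

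**Figure D3:**
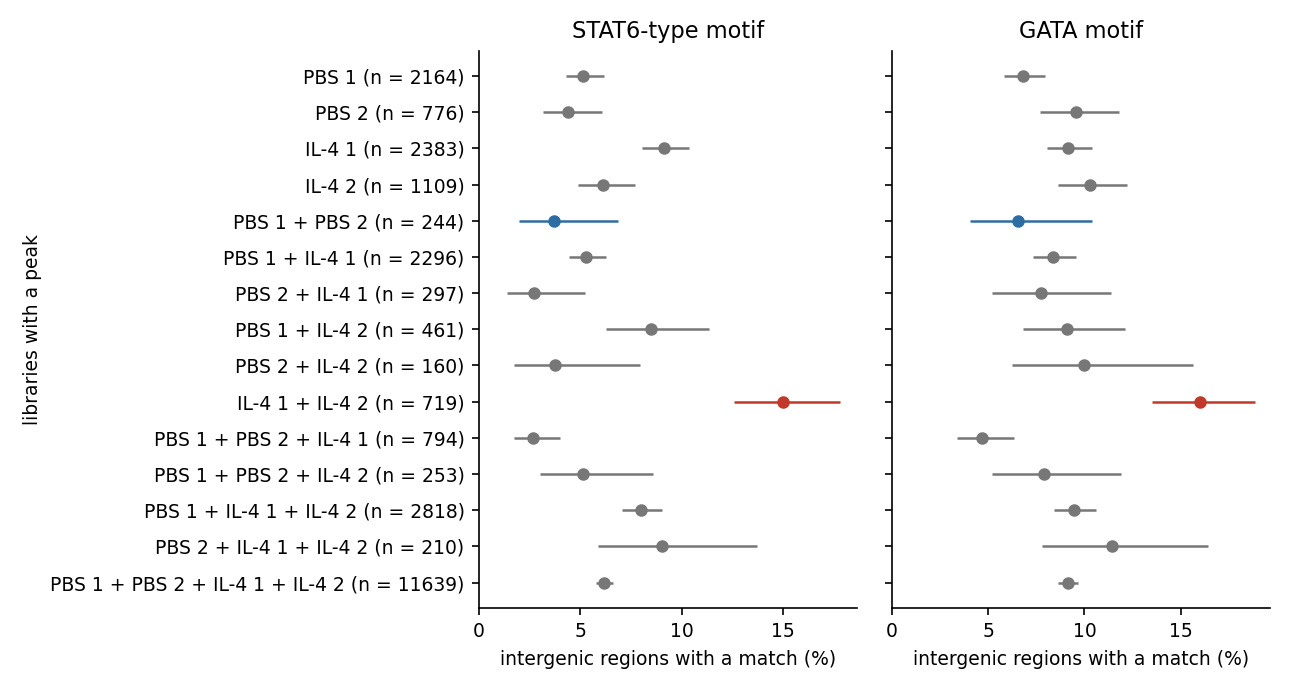
Share of intergenic regions with a STAT6-type match (left) and a GATA match (right) in percent, with 95% Wilson intervals, for each combination of libraries with a peak (rows, with the number of regions; PBS and IL-4 stand for iTreg+PBS and iTreg+IL-4). The members (red) have the highest share in both panels, 15.0% and 16%, and the PBS-only regions (blue) have 3.69% and 6.56%.

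The matches were concentrated at the centre of the members. In bins of 100 bases, STAT6-type matches occurred 9.74 and 7.65 times per 100 members in the bins just left and right of the centre, 4.87 and 5.29 times in the next bins, and between 2.50 and 3.89 times farther out, up to 500 bases. In intergenic regions called in all 4 libraries every bin lay between 2.66 and 3.35. Outside the central 400 bases the members therefore differed little from those regions in the frequency of matches. GATA matches reached 11.3 and 9.18 per 100 members in the central bins and lay between 5.15 and 8.62 in the others, against 5.04 to 5.73 in regions called in all 4 libraries. Over whole regions, which were wider when called in all 4 libraries, a GATA match was found in 22.5% of members and 26.9% of regions called in all 4 libraries, a ratio of 0.836 in the opposite direction, and a STAT6-type match in 21.56% and 18.04%, a ratio of 1.19. Per length of whole region, matches per kb were 0.737 for STAT6-type and 0.837 for GATA in the members and 0.292 and 0.514 in regions called in all 4 libraries.

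**Figure D4:**
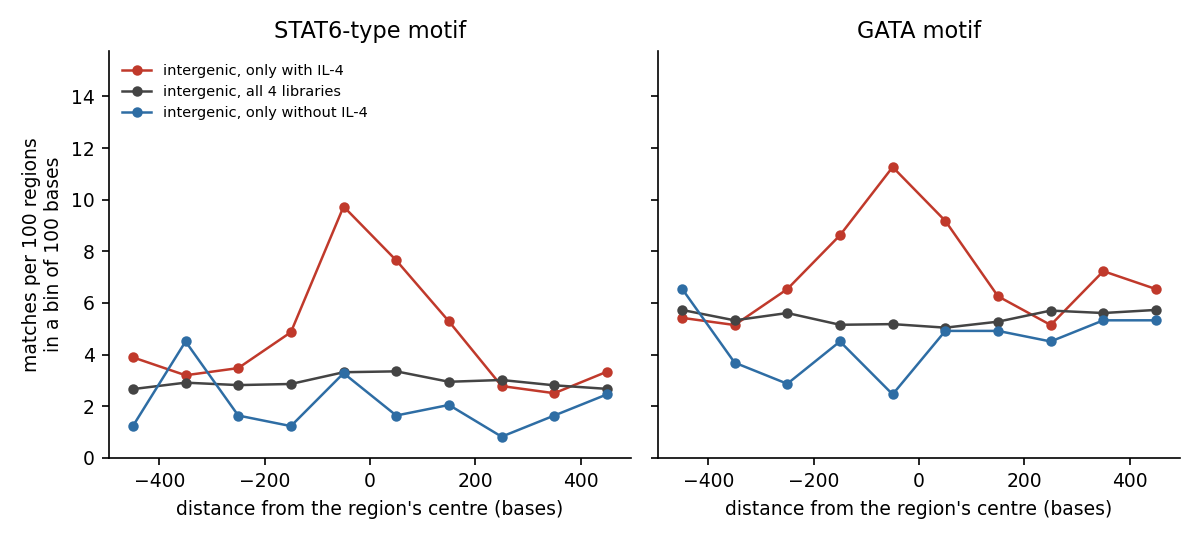
Matches per 100 regions (vertical axis) in bins of 100 bases by distance from the centre of the region (horizontal axis, bases), for the STAT6-type (left) and GATA (right) motifs. The members (red) peak at the centre, at 9.74 and 11.3, while regions called in all 4 libraries (black) are nearly flat and the 244 PBS-only regions (blue) show no central peak.

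No single spelling accounted for the STAT6-type result. The 117 matches in the 108 members had 54 different spellings when a spelling and its reverse complement were counted as 1. So counted, the commonest, TTCTCAAGAA, occurred in 10 members, followed by TTCTACAGAA in 7 and TTCCAAAGAA and TTCTAGAGAA in 6 each. With copies counted once TTCTCAAGAA was left in 4 of 672 (0.595%) and TTCTACAGAA in 7 (1.04%), against 0.199% and 0.0697% of regions called in all 4 libraries. TTCAGAAGAA occurred 5 times, all within 1 member. Ordered by the place of their weaker peak, 4 equal groups of members, from the best to the weakest, had STAT6-type shares of 17.8%, 19.4%, 12.2% and 10.6%, with the last interval running from 6.90 to 16, and GATA shares of 20%, 15%, 18.3% and 10.6%. The intervals of all 4 groups overlapped for both motifs. Among the 593 members with less than 50% repeat bases the STAT6-type share was 15.3% and the GATA share 17.2%. Without iTreg+PBS replicate 1, whose list no longer removed regions, the STAT6-type share fell to 9.12% over 3553 regions, and without iTreg+IL-4 replicate 1 to 9.83% over 1862, both above the 6.24% and 6.13% of intergenic regions called in all the remaining libraries. The GATA share fell to 10.9% without iTreg+PBS replicate 1 and to 10.6% without iTreg+IL-4 replicate 2, with ratios of 1.17 and 1.22 to such regions.

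The best ranked member lay on chromosome 9, 17 kb upstream of Lrrc1, which encodes a leucine-rich repeat scaffold protein of cell junctions (chr9:77561594-77562159). Its −log10 q was 62.1 and 40.9 and its height 83 and 54 in the IL-4 libraries, and 28.4% and 34.8% of the peaks of the lists stood higher. The nearest PBS peak was 4728 bases away. The second, 68.3 kb upstream of Ubl3, a membrane-anchored ubiquitin-like protein (chr5:148620943-148621176), had a −log10 q of 33.6 and 31.2 and lay 592 bases from a region called in all 4 libraries. Both held a STAT6-type match, and 4 of the 10 best members did.

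The other members among the best 10 lay near genes of unrelated functions. The one 80.5 kb upstream of Lmo1, a LIM-domain cofactor of transcription, had a −log10 q of 33.5 and 28.7. On the same scale the one upstream of Azin2, a regulator of polyamine synthesis, had 47.8 and 23.9 and the one upstream of Zmym5, a zinc finger protein, had 28.4 and 26.0. The member downstream of Insig1, which restrains cholesterol synthesis, had 24.0 and 25.6, and the one downstream of Gatm, the first enzyme of creatine synthesis, had 24.3 and 30.0 with a GATA match. The members near Lrfn3, a synaptic adhesion molecule, and Txndc16, a thioredoxin-domain protein, each held a STAT6-type match within sequence that repeats covered to 100% and 68%. The tenth lay 239 kb upstream of Ptger4, a receptor for prostaglandin E2, with 32.6 and 22.1. In every one of these 10 the values of both IL-4 libraries exceeded 22.

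The 10 best members with a STAT6-type match included the 4 above, the Il7r member described below, and 5 others. The Prkcq member, 112 kb upstream of the gene for the kinase that links the T cell receptor to NF-kappaB, had a −log10 q of 24.3 and 18 and the match TTCCAGAGAA, and no library had another peak within 10 kb of it. The members near C1rl, a complement-related protease, and Kcnh8, a potassium channel, had 15.0 and 17.4, and 14.4 and 17.1. Repeats covered 72.5% of the central window of the Kcnh8 member. The Prss12 member, near the gene of a secreted protease of neurons, had 14.08 and 14.05 and no other peak within 10 kb in any library. The Vmn2r96 member, near a vomeronasal receptor gene, had 19.5 and 27.5. Position does not show which gene a region serves, and these names are only those of the nearest coding start site.

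The gene lists were read against the whole genome by position. Of 21911 protein-coding genes 1499 (6.84%) had a member within 100 kb of a start site, and 54.5% had an intergenic region called in all 4 libraries there. Every list but that of the histone deacetylases was above the genome-wide value for both kinds of region. For intergenic regions called only without IL-4 the genome-wide value was 2.63%, and 5 of the 7 lists were above it as well, with 15.8% of the regulatory T cell genes, 11.1% of the costimulation, inhibition and homing genes and 10.7% of the cytokine receptor and signalling genes. These counts are a description of position and no test was made of them. A listed gene within 100 kb need not be the nearest gene, and where another coding start site was nearer it is named.

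Of the 22 genes of the type 2 helper and IL-4 response list 2 had a member within 100 kb (9.09%). Gata3 was the nearest coding gene of 6 members, but 5 of them lay 248 to 927 kb downstream. The Gata3 member within 100 kb lay 19.4 kb downstream of a start site of the gene (chr2:9853993-9854460), with a −log10 q of 3.80 and 5.24 and heights of 21 and 18, and it held 1 GATA match. It was weak in both libraries, with 92.4% and 87.6% of peaks higher, and peaks lay within 10 kb of it in all 4 libraries. The Socs1 member lay 38.1 kb downstream of the gene, whose product inhibits cytokine receptor kinases, and had 8.84 and 7.71. No gene of the list other than Gata3 and Socs1, Il4, Il5 and Il13 among the others, had a member within 100 kb.

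Of the 19 regulatory T cell genes 6 had a member within 100 kb (31.6%), but these were 4 members because neighbouring genes shared them. The member between Ctla4 and Icos, an inhibitory and a costimulatory receptor, lay 30.0 kb downstream of Ctla4 and had a −log10 q of 15.8 and 3.78, with a GATA match. The member 55.0 kb downstream of Tnfrsf18, near Tnfrsf4 (the receptors GITR and OX40), had 16.2 and 3.43 and a STAT6-type match. The nearest coding gene of the latter was Ttll10. In both, the peak of iTreg+IL-4 replicate 1 was the stronger. The Tigit member, near an inhibitory receptor gene but nearest to Drd3, had 6.97 and 8.69 with the match TTCTCATGAA. Repeats covered 54% of its central window. The Lrrc32 member, near the gene of the surface protein that holds latent TGF-β but nearest to Emsy, had 5.82 and 7.46.

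Of the 19 genes of other helper programs 4 had a member. The strongest lay 44.8 kb upstream of Il21, the cytokine of follicular helper cells (chr3:37277179-37277624), with a −log10 q of 17.3 and 28.5 and heights of 87 and 92. The start site of Cetn4 was nearer, at 35018 bases. The Ahr member, near the gene of the aryl hydrocarbon receptor, had 13.5 and 9.22 with a STAT6-type match. The Bcl6 member, near the regulator of follicular helper cells, had 9.19 and 6.29, with the nearest PBS peak 15818 bases away. The Eomes member, near a regulator of cytotoxic and type 1 programs, had 4.93 and 4.10 with a GATA match.

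Of the 28 cytokine receptor and signalling genes 5 had a member. The Il7r member lay 37.4 kb upstream of the gene for the IL-7 receptor alpha chain, which sustains naive and memory T cells (chr15:9567389-9567722). It had the highest peaks of any member, with heights of 173 and 95 that only 18.5% and 27.2% of peaks exceeded, whereas by −log10 q (33.2 and 19) 41.2% and 54.4% did. It held both motifs, 1 match of each, and lay 1687 bases from a region called in all 4 libraries. The Socs2 member, near a feedback inhibitor of cytokine signalling, had a −log10 q of 8.39 and 13.9. The Il6st member, 42.4 kb from the gene of the shared receptor subunit gp130 and 14946 bases from the start site of Il31ra, another receptor gene, had 18.1 and 8.22. The Smad3 member, near a transducer of TGF-β, had 13.2 and 7.87 with a GATA match. The remaining gene with a member was Smad7.

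Of the 45 T cell transcription factor genes 8 had a member, with 10 members in all. The Tcf7 member, 59.5 kb upstream of a gene whose product maintains naive and memory T cells, had a −log10 q of 18.8 and 17.1 and heights of 97 and 82, with a GATA match. It lay 629 bases from a region called in all 4 libraries, and the start site of Vdac1 was nearer, at 18366 bases. Runx1, which encodes a factor needed for T cell development, had 3 members within 100 kb. The one 94.3 kb downstream had 3.68 and 4.80, and the pair upstream had 3.18 and 2.18, and 1.79 and 7.07. The Nfkb1 member had 18.1 and 3.92 and the Bcl11b member, near a factor of T cell commitment but nearest to Setd3, had 3.10 and 7.07. Apart from Tcf7 and Nfkb1 the list's members stayed under 9 in both libraries.

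Of the 18 costimulation, inhibition and homing genes 4 had a member. The Cd40lg member, near the gene of the ligand that helper cells show to B cells, had a −log10 q of 9.83 and 9.91. Havcr2, which encodes the inhibitory receptor TIM-3, had a member 31.4 kb downstream with 7.65 and 12 and the match TTCTCAAGAA. Repeats covered 100% of the central window of this member. Another Havcr2 member lay 25.5 kb upstream, nearer to Med7 at 7463 bases, with 5.93 and 4.95 and a GATA match. The Pdcd1 member, 94.6 kb upstream of the PD-1 gene, had 5.59 and 5.53 with a GATA match, and the nearest PBS peak was 54845 bases away. Itga4 also had a member. Of the 18 histone deacetylase and sirtuin genes, the enzymes the study examined, only Hdac4 had a member within 100 kb (5.56%), 80 kb upstream, with 6.27 and 4.10 and no other peak within 10 kb in any library.

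The nearest start site and other nearby peaks had like shares with and without IL-4. These peaks were not used by the rule and give 1 value for each library. The nearest coding start site had a peak within 1 kb for 64.5% and 59.8% of members in PBS replicates 1 and 2, and for 63.1% and 62.4% in IL-4 replicates 1 and 2. The IL-4 values lay between the PBS values, and the means, 62.2 ± 3.34 and 62.8 ± 0.492 (SD, n = 2), differed by 0.626 percentage points (p = 1, two-sided exact permutation test). Over all 93459 coding start sites the shares were 54.1% and 51.0% with PBS and 54.5% and 52.9% with IL-4. In 421 members (58.6%) the nearest coding start site was peaked in all 4 libraries and in 243 (33.8%) in none.

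A start site that gained a peak together with the member was rare. In 4 members (0.556%) the nearest coding start site had a peak in both IL-4 libraries and no PBS library, against 0.338% of all coding start sites, and in 1 the reverse. These 4 start sites, named after their values were seen, belonged to Mycn, a relative of Myc, Fam84a, Il1rn, the antagonist of the IL-1 receptor, and Rad54b, a DNA repair protein. The Il1rn member lay 7815 bases from the start site and the Mycn member 317522 bases.

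Another peak within 10 kb was found for 66.8% and 55.9% of members in the PBS libraries and for 67.2% and 62.9% in the IL-4 libraries. The groups overlapped, and the means, 61.3 ± 7.67 and 65.0 ± 3.05 (SD, n = 2), differed by 3.69 percentage points (p = 0.667, two-sided exact permutation test). Without iTreg+PBS replicate 2, the library with the shortest list, the direction turned, to -1.74 points. Such a peak was present in all 4 libraries for 384 members and in none for 193. Counted for other regions in the same way, with any peak outside the region itself, the share for members was 66.8% and 55.9% with PBS and 68.4% and 63.8% with IL-4. It was 67.3%, 56.9%, 67.9% and 63.9% for all intergenic regions, close to the members, and 73.1%, 63.0%, 73.4% and 69.8% for those called in all 4 libraries. So counted, all 4 libraries had such a peak for 53.4% of members and 54.0% of all intergenic regions. None had one for 25.7% and 26.8%. The median distance to the nearest region called in all 4 libraries was 9091 bases and to the nearest PBS peak 5834 bases. A PBS peak lay within 1 kb of 82 members (11.4%) and within 100 bases of 2.

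**Figure D5:**
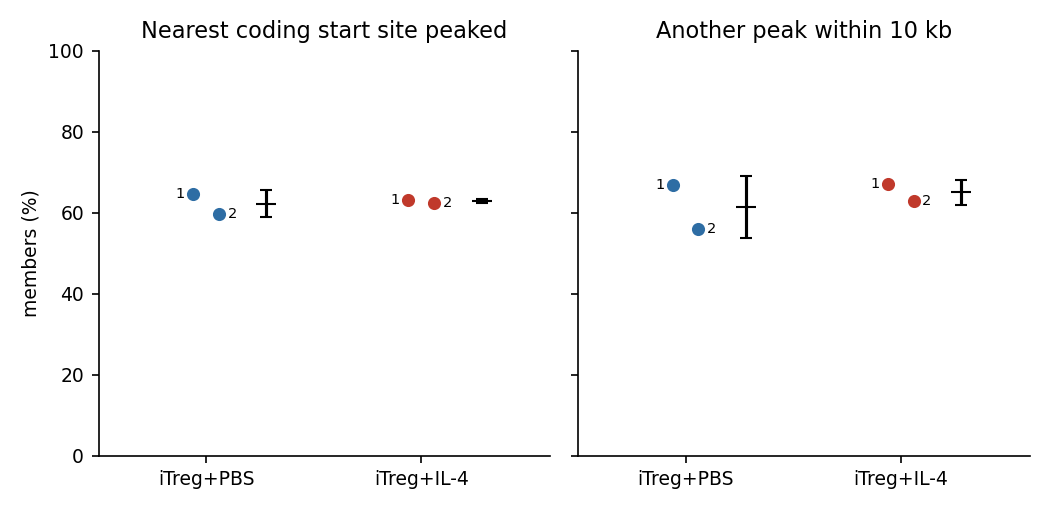
Share of the 719 members (percent, vertical axis) whose nearest coding start site had a peak within 1 kb (left) and that had another peak within 10 kb (right), 1 point for each library labelled by replicate, with the mean and SD of each group (n = 2) in black. The IL-4 libraries (red) overlap the PBS libraries (blue) in the left panel, and in the right panel iTreg+PBS replicate 2 lies lowest at 55.9%.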

How the data were processed

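ATAC-seq peak lists of 2 iTreg+PBS and 2 iTreg+IL-4 libraries were used, with groups and replicate numbers from the labels. The authors mapped reads to mm10 and called peaks in each library. The submitters' processing notes name Bowtie2 2.2.5, MACS2 2.1.2 and bedtools 2.16.2, and the settings of the caller are not given in the sources used here. Each deposited list gives coordinates and 2 unlabelled values for each peak. From their ranges they were read as the −log10 of the q-value, never below 1.31, and as peak height in the pileup signal, whole numbers that the authors did not scale between libraries, so they were ranked within a list only. Removal of duplicates and the transposase offset could shift heights and centres and were not tested.

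Peaks were merged on a minimum overlap of 1 base in Python 3.11.15 with pandas 2.3.3 and numpy 2.4.6. Start sites and gene bodies came from GENCODE release M21, and sequence from the soft-masked RefSeq GRCm38.p6 assembly, read with pysam 0.24.0 and samtools 1.23.1. Motifs were searched on both strands, overlapping matches included. Shares have 95% Wilson intervals, and library values were compared with two-sided exact permutation tests (scipy 1.17.1), which with 2 against 2 cannot go below 0.333. The scripts were tested on simulated data. No label says that a replicate number marks a shared batch. The libraries were cultures of pooled cells, so a p-value measures only the spread between these libraries.

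The members and the gene lists were chosen with earlier results of these data known. Regions were named by a rule: the 10 members with the best rank in their weaker library, the 10 best with a STAT6-type match, up to 4 for each of 7 gene lists within 100 kb, runs of at least 3 members, and the members nearest to and farthest from a start site. The 3 best with both motifs and the Runx1 pair were added after the values were seen. Alternatives for the lists, overlap, merging, distances, windows, repeats, the replicate block and each library left out were computed. Peaks outside the assembled chromosomes were not used.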

Additional observations from a re-analysis of the deposited data

How the results depend on the processing

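Of 68 alternative values, 46 kept the direction and the size or side of the main value. Some of the 46 could not do otherwise. These were the values with the replicate number as a block, and the STAT6-type differences in regions called in 1 library alone with a library left out. The count of 719 regions was 282 with the upper 50% of each list. It was 407 when all lists were cut to the length of the shortest. In either case most were other regions than the members, and the cut also takes weaker PBS peaks off the lists. With a library left out it was 930 to 3553, a rise that follows by construction because a condition of the rule is dropped. With the replicate number as a block, which asks for an IL-4 peak without a PBS peak of the same number in both numbers, the count stayed at 719 by construction. The intergenic share of IL-4-only regions was 34.8% beyond 2 kb and 21.9% beyond 10 kb from a start site, and 29.7% to 31.1% with a library left out. The STAT6-type share was 8.07% in the central 100 bases, 20.4% in 300 and 21.6% in whole regions, and 9.12% to 13.7% with a library left out. It was 1.19 to 2.76 times that of intergenic regions called in all libraries over 11 alternatives. The GATA share, whose alternatives were chosen after seeing the data, was 0.836 times it in whole regions, which are wider for regions called in all libraries, and 1.17 to 2.00 times it otherwise. With A or T before GATA and A or G after it the ratio was 1.56. The difference in peaked nearest start sites ran from -1.74 to 2.99 points and that in neighbouring peaks from -1.74 to 9.11 with a library left out, both below 0 without iTreg+PBS replicate 2. With the replicate numbers as pairs they were 0.626 and 3.69 points (exact p = 1 and 0.5). The cause of these changes was not tested. In regions called in 1 library alone the higher STAT6-type and GATA shares with IL-4 kept their direction with each library left out, at 1.38 to 4.39 and 0.178 to 2.92 points. For the STAT6-type motif no other direction was possible, because both IL-4 values lay above both PBS values. Without reads, depth could not be matched between libraries.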

Other observations

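The noncoding genes that held the centre of a member were mostly long intergenic noncoding RNAs, with 69 pairs of a member and such a gene, and antisense transcripts made up 16. Members were also nearest to Il1rn, Nfkbiz and Irf2, genes of cytokine and interferon regulation. Nfkbiz and Irf2 were each nearest to 2 members within 100 kb, but so were many other genes, among them Azin2, Cdc23, Golph3, Hspa13 and Uaca. Il1rn, Nfkbiz and Irf2 were picked after their values were seen, and no test was made of them.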
